A study of Mus with 8 samples.

Results

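The genes described here mark macrophages and lymphocytes, the immune cells that live among the adipocytes of brown fat. A list of 35 such genes was given by name, and none was chosen by its values. A gene was measured where a probe set carried its name alone, and of several such probe sets the one with the highest mean over all arrays was used. By this rule 34 of the 35 genes were measured, among 30627 named genes in all. They comprise 25 genes of the monocyte and macrophage lineage (myeloid), 8 genes of T cells, B cells and NK cells (lymphoid), and Ptprc, which encodes CD45, a phosphatase on the surface of all leukocytes. Gata3, the ninth lymphoid gene listed, shares its probe set with a second gene and was not used.

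Interscapular brown adipose tissue was taken from each mouse, and its total RNA was run on 1 Affymetrix array per mouse. The arrays came from 4 C57BL/6 mice labelled Hilpda KO and 4 labelled wild type (WT), and all 8 mice are labelled female. Hilpda encodes a lipid droplet protein that inhibits adipose triglyceride lipase. The sources used here do not give the cells in which the gene was deleted, the place of its probe set relative to the deletion, or the age of the mice. Setting KO against WT addresses how loss of Hilpda bears on brown fat, and here it is read for the immune cells of the tissue.

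Macrophages take up dying cells, lipid and debris, and they depend on signalling through the CSF1 receptor. Those that reside in a tissue carry scavenger and lectin receptors such as CD163 and CD206, whereas monocytes arriving from blood carry CCR2. Complement C1q, Fc receptors and their signalling adaptors serve recognition of coated particles. T cells recognise antigen through a receptor that signals by way of CD3, B cells through a receptor that signals by way of CD79A and CD79B. In lean brown fat, macrophages are known as the main immune cells, and lymphocytes are few.

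The arrays lie on 2 value distributions. Replicates 1 and 2 of both genotypes (set 1) had a median of 3.92 to 3.98 over all named genes, and replicates 3 and 4 of both genotypes (set 2) had a median of 4.92 to 4.96. Each set holds 2 KO and 2 WT arrays, so the genotypes were compared with the set as a block and also within each set. Hilpda read 4.45, 4.37, 5.60 and 5.51 in KO replicates 1 to 4, against 4.37, 4.28, 6.00 and 5.92 in WT replicates 1 to 4, so it was lower in the KO arrays of set 2 but not in those of set 1 (two-sided exact permutation p = 0.278, where the 36 possible arrangements allow no p below 0.0556). Directions below refer to the arrays labelled KO. The brown fat genes Ucp1 and Cidea read at least 19.68 and 18.76 on all 8 arrays. Xist, the RNA that silences an X chromosome in females, was at most 4.10 and the Y-linked gene Uty at least 9.31 on all of them, which goes against the label of female mice in both genotypes.

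Most myeloid genes were detected in both sets, and lymphoid genes were mostly at low signal. As a measure of low signal, the 95th percentile of 1225 olfactory receptor genes was taken on each array, since these genes are mostly silent outside the nose. It lay between 3.80 and 3.94 in set 1 and between 4.74 and 4.84 in set 2. Of the 25 myeloid genes, 17 were above it on all 8 arrays, against 45.0% of all named genes. Ptprc was above it on all 8 arrays. Of the 8 lymphoid genes 0 were above it on all 8 arrays, and 3 (Cd3e, Cd79b and Nkg7) were above it on all 4 arrays of set 2, a share of 37.5% beside 49.1% of all named genes. In bulk tissue, fewer cells of a type and less RNA per cell cannot be told apart.

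**Figure D1:**
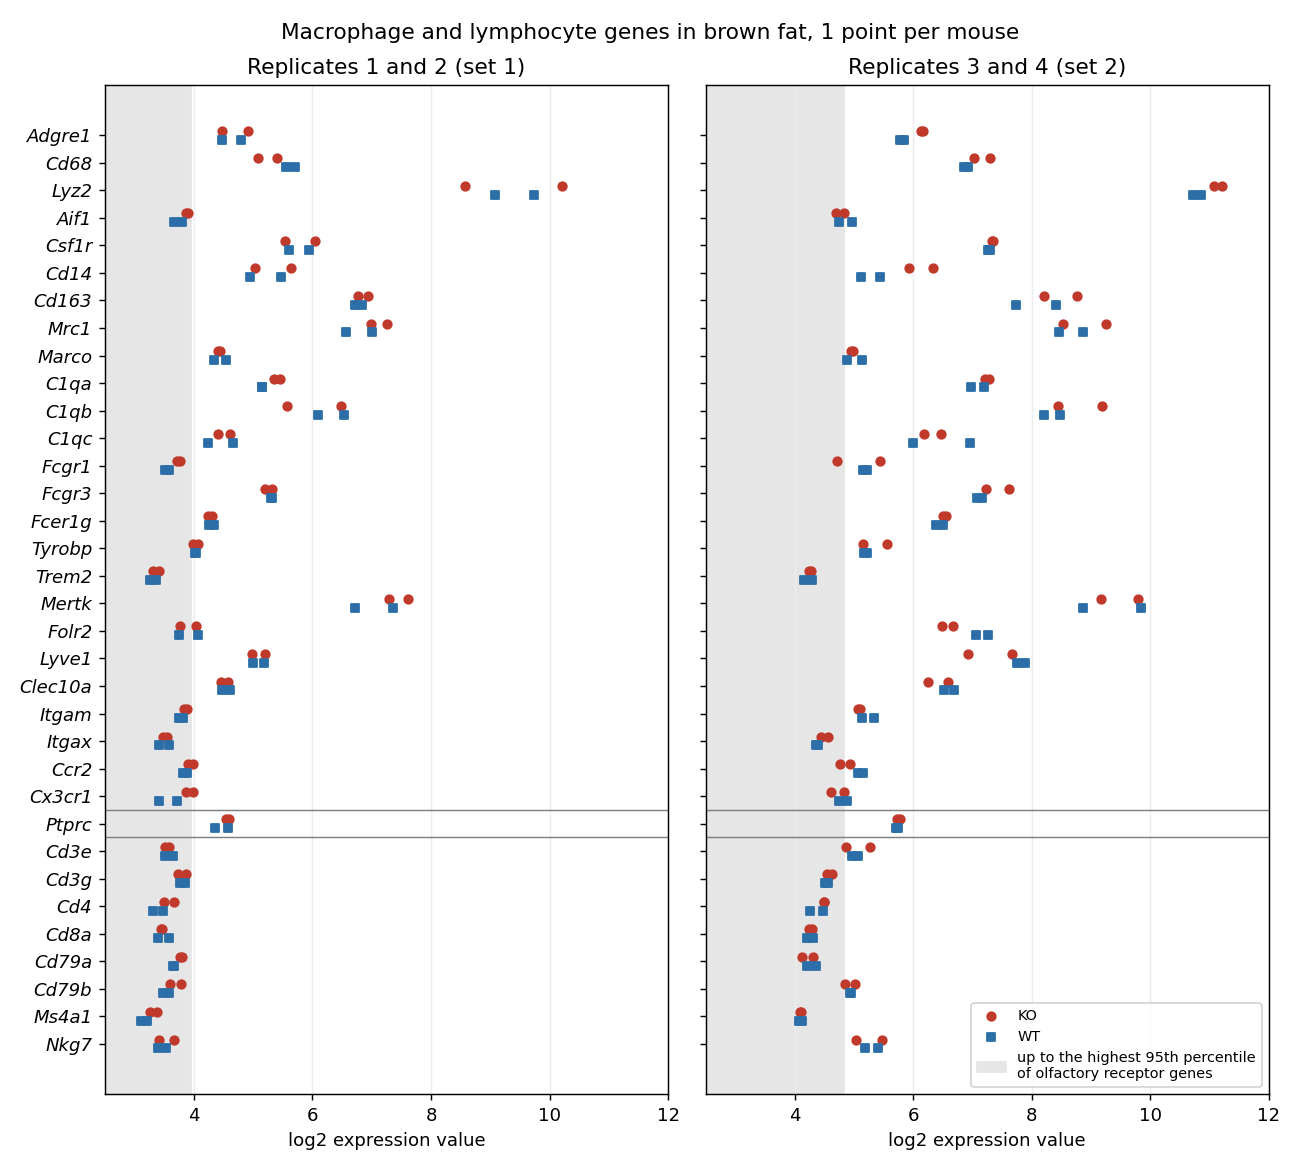
Log2 expression values (horizontal axis) of the 34 measured genes (rows) in set 1 (left) and set 2 (right), with 1 red circle per KO mouse and 1 blue square per WT mouse. The grey area reaches up to the highest of the olfactory receptor 95th percentiles of that set (3.94 in set 1 and 4.84 in set 2). The lymphoid genes, below the lower line, lie in or next to the grey area. Both KO points lie above both WT points in 10 of the 34 genes in set 1 (18.9% of all named genes) and 9 in set 2 (23.9%). They lie below in 1 gene of set 1 (19.4% of all named genes) and 4 of set 2 (19.1%). The points of the other genes of each panel overlap.

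No macrophage or lymphocyte gene passed the test between the genotypes. In limma with the set as a block, 0 of the 34 genes had an adjusted p under 0.05 (lowest adjusted p = 0.984), as did 0.0% of all named genes. The difference, KO minus WT on the log2 scale, was above 0 in 17 of 25 myeloid genes and in 7 of 8 lymphoid genes, against 52.6% of all named genes. Above the olfactory 95th percentile on all arrays were 13779 named genes, of which 44.9% had a difference above 0, against 12 of 17 myeloid genes. Of the lymphoid genes 0 were in that group. Among olfactory receptor genes, mostly at low signal, 717 of 1225 were above 0. With any 1 array left out, the counts over all 25 myeloid and all 8 lymphoid genes ranged from 13 to 19 and from 5 to 8. After quantile normalization the lymphoid count was 4 of 8. Within set 1 the difference was above 0 in 16 myeloid and 5 lymphoid genes (51.1% of all named genes), and within set 2 in 15 and 5 (53.6%). Of the 17 myeloid genes above that percentile on all arrays, 9 were above 0 in set 1 and 13 in set 2, beside 36.9% and 56.4% of those 13779. Within the sets 0 members passed either, beside 0.0% of all named genes in set 1 and 0.00327% in set 2 (lowest member adjusted p = 0.59 and 0.174). The median difference was 0.044 over the myeloid genes, 0.027 over the lymphoid genes and 0.0075 over all named genes. With any 1 array left out, the myeloid median lay between 0.016 (without KO replicate 1) and 0.095 (without WT replicate 1), and the lymphoid median between 0.0036 (without KO replicate 1) and 0.081 (without KO replicate 3). A difference reached at least 0.2 above 0 in 5 myeloid genes (8.81% of all named genes) and at least 0.2 below 0 in 2 (7.33% of all named genes). The 95% interval of a difference reached a median of 0.30 to either side for a myeloid gene (0.16 to 0.78) and 0.19 for a lymphoid gene (0.16 to 0.28), before any adjustment for the number of genes tested.

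**Figure D2:**
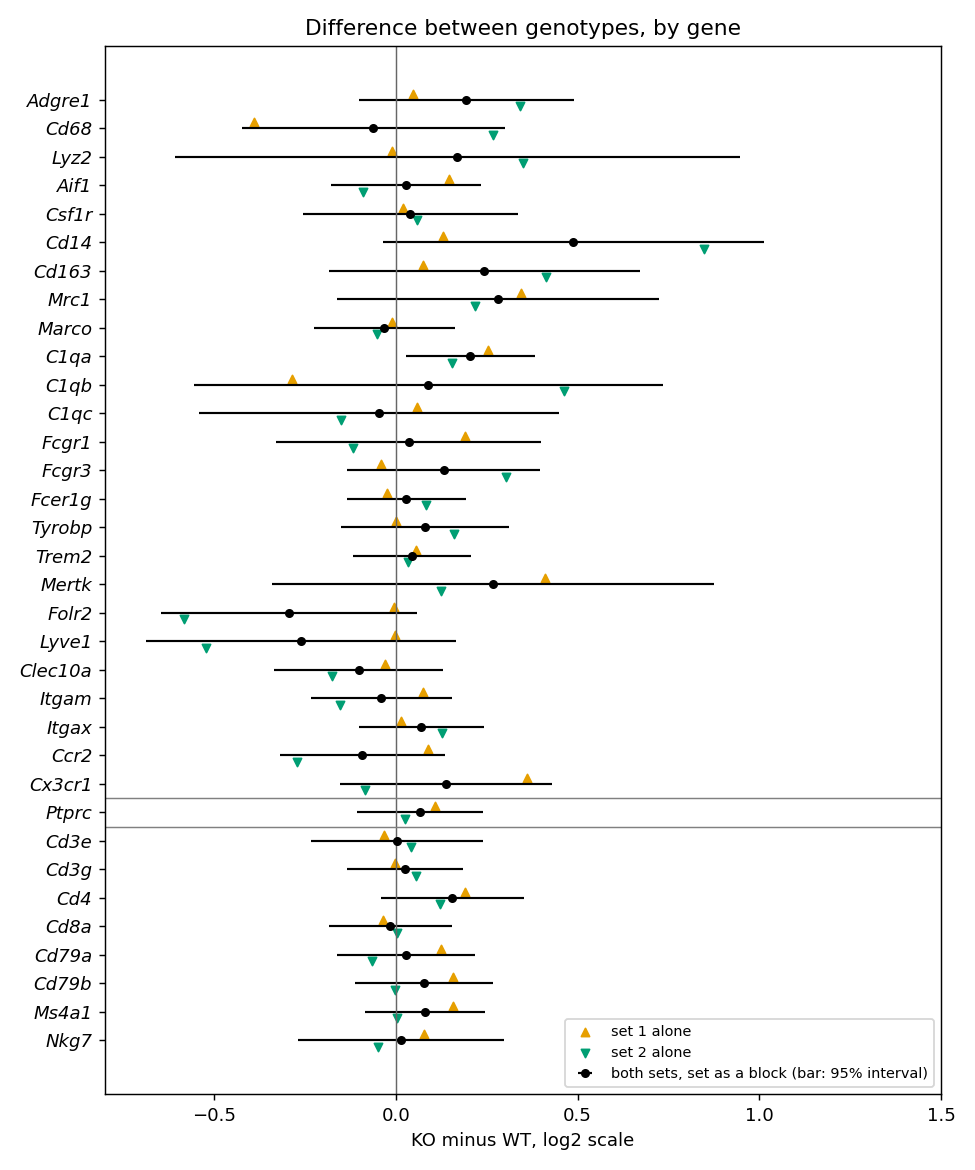
Difference between the genotypes, KO minus WT on the log2 scale (horizontal axis), for each of the 34 genes (rows). Black points with 95% intervals come from the set-block fit, triangles from each set alone. The interval of C1qa (0.03 to 0.38) lies above 0 before adjustment, and the intervals of the 33 other genes include 0.

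Csf1r and Adgre1, which define macrophages as a class, interleaved between the genotypes in set 1. In set 2 both genes were higher in the KO arrays, as were 23.9% of all named genes. Csf1r, the receptor for the growth factors CSF1 and IL-34, read 6.05, 5.53, 7.35 and 7.32 in KO replicates 1 to 4, against 5.94, 5.60, 7.25 and 7.29 in WT replicates 1 to 4. The values of set 1 interleaved, the KO arrays of set 2 lay just above the WT arrays, and the difference was 0.04 (SE 0.13). Adgre1, which encodes the surface antigen F4/80, read 4.91, 4.47, 6.14 and 6.17 in KO, against 4.80, 4.48, 5.78 and 5.84 in WT. Both KO values of set 2 lay above both WT values, and the values of set 1 interleaved, giving a difference of 0.19 (SE 0.13, adjusted p = 0.984).

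Cd68, a glycoprotein of lysosomes, pointed opposite ways in the 2 sets. It read 5.40, 5.09, 7.03 and 7.29 in KO and 5.56, 5.71, 6.86 and 6.92 in WT. Both KO arrays were below both WT arrays in set 1 and above them in set 2, with differences of -0.39 and 0.27 (test of the difference between the sets, adjusted p = 0.211). Lyz2, which encodes lysozyme and is the usual driver gene for macrophage Cre lines, varied most among the members. It read 10.21, 8.58, 11.07 and 11.20 in KO and 9.74, 9.07, 10.72 and 10.85 in WT. KO replicates 1 and 2 enclosed both WT arrays of their set, and the SD within set and genotype was 0.63, against a median of 0.16 over the myeloid genes. Aif1, which encodes the actin-binding protein IBA1, stayed at low signal on 7 of 8 arrays (difference 0.03, SE 0.09).

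Among pattern and scavenger receptors, Cd14 had the highest difference of all members. Cd14, the co-receptor for bacterial lipopolysaccharide, read 5.65, 5.03, 6.33 and 5.93 in KO replicates 1 to 4, against 5.47, 4.94, 5.44 and 5.12 in WT replicates 1 to 4. The KO arrays of set 2 stood above the WT arrays, whereas those of set 1 interleaved with them. The difference was 0.49 (SE 0.23, adjusted p = 0.984), or 1.40-fold on the linear scale, and it was 0.13 within set 1 and 0.85 within set 2 (limma adjusted p = 0.219). It lay between 0.34 and 0.68 with any 1 array left out.

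Cd163, the scavenger receptor for haemoglobin bound to haptoglobin, read 6.94, 6.77, 8.21 and 8.76 in KO and 6.83, 6.72, 7.73 and 8.41 in WT. Mrc1, the mannose receptor CD206, read 7.26, 6.99, 8.52 and 9.25 in KO and 7.01, 6.56, 8.46 and 8.87 in WT. The KO and WT values of both genes overlapped in each set, and their differences were 0.24 (SE 0.18) and 0.28 (SE 0.19), each with both sets above 0. Marco, a scavenger receptor of other macrophage populations, stood at 4.41 to 4.98 in KO and 4.34 to 5.14 in WT (difference -0.03, SE 0.08).

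The chains of C1q, which opens the classical complement pathway and is made largely by macrophages, gave unlike differences. C1qa read 5.34, 5.45, 7.27 and 7.21 in KO and 5.14, 5.14, 7.19 and 6.98 in WT. It was higher in both KO arrays than in both WT arrays of each set, by 0.25 in set 1 and 0.16 in set 2. Its difference of 0.20 (SE 0.08, adjusted p = 0.984) was the only one among the members that passed at an unadjusted threshold of 0.05 with the set block. On the KO-higher side 2.49% of all named genes did so. On the KO-lower side 0 members did, beside 2.32% of all named genes. C1qb read 6.49, 5.57, 8.44 and 9.18 in KO and 6.53, 6.09, 8.21 and 8.48 in WT, a difference of -0.28 in set 1 and 0.46 in set 2. C1qc read 4.61, 4.40, 6.18 and 6.47 in KO and 4.66, 4.24, 6.00 and 6.95 in WT, and the genotypes overlapped in both sets.

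Fc receptors and their adaptors differed by 0.03 to 0.13, all 5 above 0 and none past the test. Fcgr3, a low-affinity receptor for IgG, read 5.32, 5.20, 7.23 and 7.62 in KO and 5.31, 5.29, 7.08 and 7.16 in WT. The sets gave -0.04 and 0.30, and only in set 2 were both KO arrays above both WT arrays. Fcer1g, the signalling chain shared by several Fc receptors, had the smallest SD within set and genotype of the myeloid genes (0.06) and read 4.31, 4.23, 6.50 and 6.55 in KO against 4.25, 4.35, 6.38 and 6.50 in WT. Tyrobp, which encodes the adaptor DAP12, stood at 3.99 to 5.56 in KO and 4.02 to 5.22 in WT. Fcgr1, the high-affinity IgG receptor, and Trem2, a lipid-sensing receptor that signals through DAP12, were at or near low signal. Trem2 was above the olfactory 95th percentile on 0 arrays.

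Mertk, the receptor by which macrophages engulf apoptotic cells, varied within each genotype as much as between them. It read 7.28, 7.62, 9.16 and 9.79 in KO and 6.72, 7.36, 8.86 and 9.84 in WT, with overlapping groups in both sets. The difference was 0.27 (SE 0.26), and its 95% interval ran from -0.34 to 0.87.

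Folr2, Lyve1 and Clec10a, which also mark resident macrophages, had differences below 0 in both sets. They ran from -0.03 to -0.001 in set 1 and from -0.58 to -0.17 in set 2. The differences of Cd163 and Mrc1, likewise genes of resident macrophages, were above 0 in both. Folr2, a folate receptor, read 4.04, 3.76, 6.49 and 6.67 in KO replicates 1 to 4, against 3.74, 4.07, 7.06 and 7.26 in WT replicates 1 to 4. Both KO arrays of set 2 were below both WT arrays, and in set 1, where 2 of 4 arrays were above the olfactory 95th percentile, the values interleaved. The difference was -0.29 (SE 0.15, adjusted p = 0.984), made up of -0.0053 in set 1 and -0.58 in set 2 (limma adjusted p = 0.174, the lowest of any member in that set).

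Lyve1, a hyaluronan receptor also found on lymphatic endothelium, read 5.20, 4.97, 6.93 and 7.66 in KO and 4.999, 5.18, 7.75 and 7.88 in WT. It too was lower in both KO arrays of set 2 and interleaved in set 1, with differences of -0.52 and -0.0010. Clec10a, a lectin that binds galactose, read 4.58, 4.45, 6.26 and 6.60 in KO and 4.61, 4.48, 6.52 and 6.69 in WT, and its groups overlapped in both sets. The differences of the 3 genes stayed below 0 with any 1 array left out (-0.42 to -0.20 for Folr2, -0.36 to -0.06 for Lyve1 and -0.16 to -0.02 for Clec10a). A difference below 0 in both sets was found in 4 of the 34 members, these and Marco, and in 19.2% of all named genes. One above 0 in both sets was found in 13 members (10 myeloid, 2 lymphoid and Ptprc) and in 23.8% of all named genes.

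Integrins and chemokine receptors, which mark monocytes and dendritic cells as well as macrophages, were close to low signal. Ccr2, the receptor that draws monocytes out of blood towards CCL2, read 3.89, 3.99, 4.93 and 4.76 in KO and 3.89, 3.82, 5.07 and 5.16 in WT. Its KO arrays were above the WT arrays in set 1 and below them in set 2 (differences of 0.09 and -0.27, test between the sets adjusted p = 0.335). Itgam, which encodes CD11b, turned the same way, with 0.08 and -0.15. Cx3cr1, the fractalkine receptor, read 3.99, 3.87, 4.62 and 4.84 in KO and 3.72, 3.42, 4.88 and 4.75 in WT, a difference of 0.36 in set 1 and -0.09 in set 2. Itgax, which encodes CD11c, was above the olfactory 95th percentile on 0 arrays and differed by 0.07 (SE 0.07).

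Ptprc, the gene shared by all leukocytes, read 4.60, 4.53, 5.78 and 5.73 in KO and 4.57, 4.35, 5.71 and 5.75 in WT. The genotypes overlapped in both sets, and the difference of 0.07 (SE 0.07, adjusted p = 0.999) had a 95% interval of -0.11 to 0.24.

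Genes of the T cell receptor complex gave little signal to compare. Cd3e, a signalling chain of the complex, read 3.58, 3.51, 4.86 and 5.27 in KO and 3.65, 3.51, 5.07 and 4.98 in WT, a difference of 0.0042 (SE 0.10). Cd3g, another chain of it, and Cd8a, the co-receptor of cytotoxic T cells, differed by 0.03 and -0.02 and read at most 4.64 on every array. Cd4, the co-receptor of helper T cells, read 3.50, 3.67, 4.50 and 4.49 in KO and 3.47, 3.31, 4.48 and 4.26 in WT. It was higher in both KO arrays of each set, with a difference of 0.16 (SE 0.08, adjusted p = 0.984), yet above the olfactory 95th percentile on 0 of 8 arrays. Cd4 and C1qa were the 2 members whose KO arrays lay above the WT arrays in both sets, which 2.85% of all named genes did, and 0 members lay below in both sets (2.45% of all named genes).

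B cell genes were likewise at low signal. Cd79a and Cd79b encode the signalling chains of the B cell receptor, and Ms4a1 encodes CD20, a surface protein of B cells. Cd79b read 3.59, 3.78, 4.86 and 5.03 in KO and 3.58, 3.48, 4.95 and 4.94 in WT. All 3 genes were higher in both KO arrays of set 1, by 0.12 to 0.16, at levels below the olfactory 95th percentile. In set 2 their differences were -0.07 to 0.0027. Nkg7, a granule protein of NK cells and cytotoxic T cells, read 3.67, 3.41, 5.47 and 5.03 in KO and 3.53, 3.39, 5.41 and 5.19 in WT, a difference of 0.01 (SE 0.12).

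The mean of the 25 myeloid genes was 5.13, 4.91, 6.51 and 6.69 in KO replicates 1 to 4, against 5.02, 4.90, 6.45 and 6.61 in WT replicates 1 to 4. The mean of the 8 lymphoid genes was 3.60, 3.57, 4.60 and 4.63 in KO, against 3.56, 3.46, 4.64 and 4.57 in WT. The lymphoid mean was higher in both KO arrays than in both WT arrays of set 1, where the 8 genes were at low signal on all 4 arrays but for Cd3g in WT replicate 2, and the other comparisons overlapped. The myeloid mean minus the lymphoid mean was 1.53, 1.34, 1.91 and 2.05 in KO and 1.47, 1.44, 1.81 and 2.05 in WT. KO minus WT, it differed by -0.02 in set 1 and 0.06 in set 2. With most lymphoid genes at low signal, it does not measure the balance of the 2 cell classes.

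The set-block differences of the 25 myeloid genes spanned -0.29 to 0.49, and those of the 8 lymphoid genes, most of them at low signal, -0.02 to 0.16. The scatter of the classes was not tested against each other. The median SD within set and genotype was 0.16 for the myeloid and 0.09 for the lymphoid genes, beside 0.15 for all named genes. From set 1 to set 2, the median level of a myeloid gene was 1.53 higher and that of a lymphoid gene 0.90 higher, beside 0.88 for all named genes and 0.49 for olfactory receptor genes. The sets appear to have been normalized apart, so this last comparison mixes the tissue with the scale.

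Within the sets, KO and WT arrays parted completely in some members and in many other genes. In set 1, both KO arrays were above both WT arrays in 10 of the 34 members (18.9% of all named genes and 12.9% of the 13779 above the olfactory 95th percentile) and below them in Cd68 alone (19.4% and 30.4%). Of the 34 members, 18 were among those 13779. The 10 genes above were Aif1, C1qa, Fcgr1, Itgam, Ccr2, Cx3cr1, Cd4, Cd79a, Cd79b and Ms4a1, all but C1qa at low signal on at least 1 array of that set. In set 2 they were above in 9 members (23.9% and 31.1%) and below in 4 (19.1% and 22.1%). In set 2 the 9 genes above were Adgre1, Cd68, Lyz2, Csf1r, Cd14, C1qa, Fcgr3, Itgax and Cd4, and the 4 below were Folr2, Lyve1, Itgam and Ccr2. The difference between the sets passed at an adjusted p under 0.05 in 0 members and in 0.5% of all named genes. At an unadjusted threshold of 0.05 it did so in 3 members (Cd68, Folr2 and Ccr2) and in 14.8% of all named genes.

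**Figure D3:**
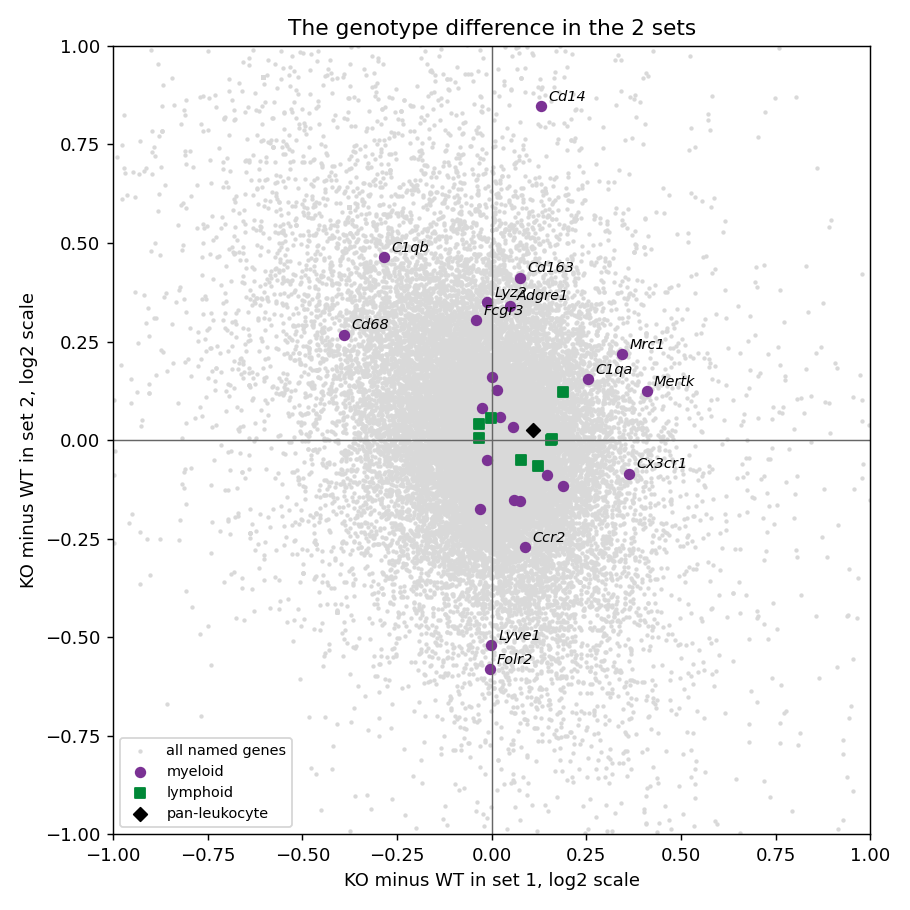
Difference between the genotypes (KO minus WT, log2 scale) in set 1 (horizontal axis) and in set 2 (vertical axis) for all named genes (grey), myeloid genes (purple), lymphoid genes (green) and Ptprc (black). Both axes end at 1 to either side and leave out genes beyond. Members with a difference of 0.25 or more in a set are named, and Cd14 (0.85) and Folr2 (-0.58) lie furthest from 0 in set 2.

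Further genes of the same cells were taken from gene lists by cell type, beside which 52.6% of all named genes had a difference above 0. The genes described from a list were mostly picked for the smallest p in these data. Of 43 other measured genes of macrophages and monocytes, 27 were above and 16 below 0, with a median of 0.051, and 0 passed the adjusted test. Ms4a6c, a membrane protein of monocytes and macrophages, read 5.29, 5.33, 6.88 and 6.98 in KO and 5.17, 5.03, 6.26 and 6.54 in WT. It was higher in both KO arrays of each set, as were 2.85% of all named genes. Its difference was 0.37 (SE 0.10, adjusted p = 0.984). Clec4n, the fungal receptor dectin-2, differed by -0.15 (SE 0.08). Arg1, an enzyme of arginine breakdown found in macrophages and in liver, read 8.11 and 5.82 in the KO arrays of set 1 against 5.26 and 4.57 in the WT arrays of that set, and 4.23 to 4.43 in set 2.

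Of 12 measured genes of lipid-laden macrophages, 10 were above 0 (52.6% of all named genes), with a median of 0.057. Within the sets, 7 of the 12 were above 0 in set 1 and 8 in set 2. The list includes Itgax and Trem2, which are members described above. Apoe, which carries lipid out of cells and is also made by liver and adipocytes, read 14.10, 13.74, 15.71 and 15.67 in KO and 13.90, 14.10, 14.40 and 14.79 in WT. Gpnmb, a glycoprotein of lipid-laden macrophages, read 4.25, 3.98, 6.19 and 6.27 in KO and 4.23, 4.17, 5.63 and 5.72 in WT. Both were higher in the KO arrays of set 2 alone, by 1.10 (limma adjusted p = 0.0896) and 0.56 (limma adjusted p = 0.12). Lipa, the lysosomal lipase that breaks down cholesteryl esters and triglycerides and is not confined to macrophages, differed by 0.09 in set 1 and -0.72 in set 2.

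Ligands and chemokines had 14 of 24 members above 0 and a median of 0.026. Csf1, the ligand of Csf1r, read 4.30, 4.21, 5.43 and 5.40 in KO and 4.31, 4.18, 5.61 and 5.59 in WT (difference -0.09, SE 0.07). Ccl2, the ligand of Ccr2, stood at low signal (difference -0.10, SE 0.11). The chemokines Ccl9 and Ccl6 differed by 0.34 (SE 0.13) and 0.17 (SE 0.11), and Il33, a cytokine that activates innate lymphoid cells, by -0.23 (SE 0.12), with adjusted p = 0.984 for each.

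Of 14 genes of antigen presentation and dendritic cells, 7 were above 0 (median -0.019), with Cd209a, a dendritic cell lectin, at -0.22 (SE 0.09). Siglech, of plasmacytoid dendritic cells, and H2-DMb1, a chaperone of peptide loading, were at -0.11 and -0.14. Of 30 further T cell, NK cell and innate lymphoid genes, 17 were above 0 (median 0.014), with the co-stimulatory receptor Cd28, above the olfactory 95th percentile on 0 arrays, at 0.11, the interleukin 2 receptor chain Il2ra at -0.08 and the chemokine Ccl5 at 0.17. Of 17 further B cell and plasma cell genes, 10 were above 0 (median 0.023), with the tetraspanin Cd37 at 0.14, the signalling scaffold Bank1 at -0.14 and the plasma cell proteoglycan Sdc1 at -0.06.

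Of 21 genes of neutrophils, mast cells and eosinophils, 14 were above 0 (median 0.029). Mcpt4, a protease of connective tissue mast cells, read 4.00, 3.83, 5.70 and 5.56 in KO and 4.23, 3.89, 6.27 and 6.23 in WT, a difference of -0.38 (SE 0.13). Kit, the mast cell receptor for stem cell factor, differed by -0.39 (SE 0.22), and Cxcr2, a chemokine receptor of neutrophils, by 0.14 (SE 0.07). Adjusted p = 0.984 held for each of the 3, and 0 genes of any immune list passed.

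**Figure D4:**
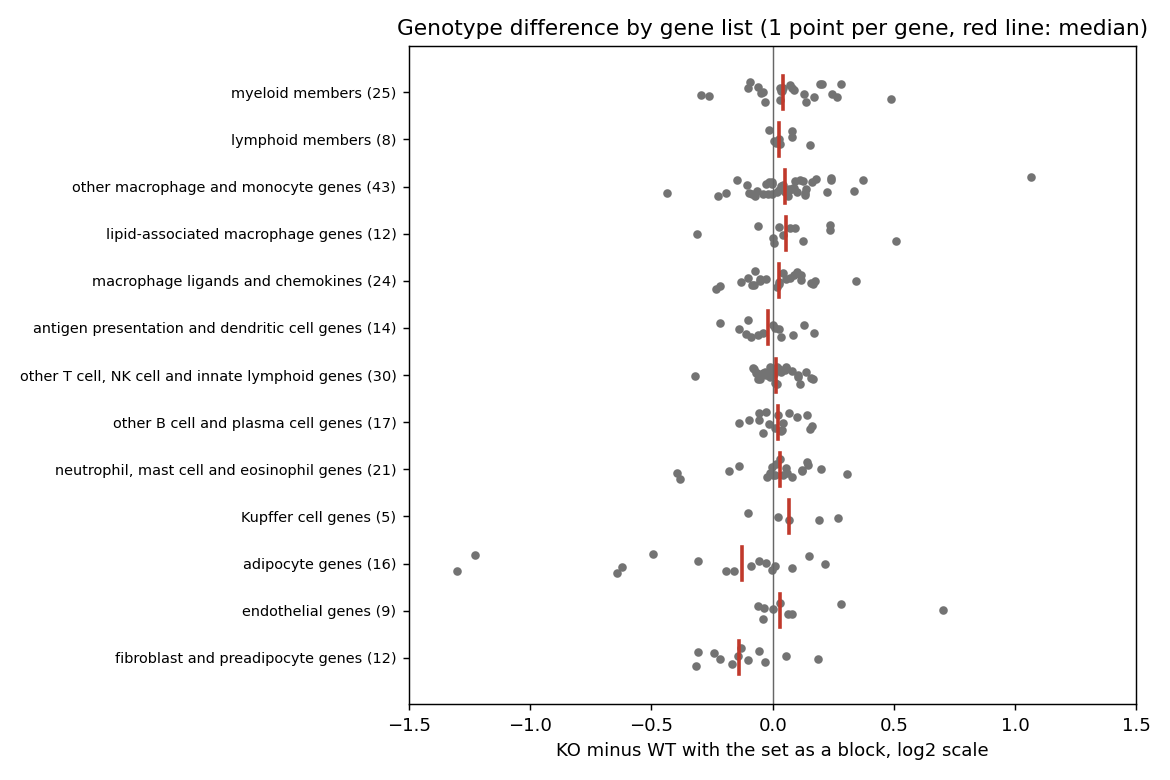
Difference between the genotypes (KO minus WT with the set as a block, log2 scale, horizontal axis) for each gene (grey points) of the immune cell lists and 3 lists of other cell types, with the number measured in brackets and the median as a red line. The medians of the immune lists lie between -0.019 and 0.068.

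RNA of other tissues varied between arrays beside these genes. The mean of 21 liver genes was 11.42, 8.63, 5.87 and 6.13 in KO replicates 1 to 4, against 8.37, 6.87, 5.88 and 5.84 in WT replicates 1 to 4, and all 21 were above the olfactory 95th percentile on every array of set 1. Alb, which encodes albumin, read at most 5.23 in KO and 5.11 in WT in set 2, but 19.23 and 15.81 in KO and 14.51 and 10.03 in WT in set 1. Liver holds its own macrophages, the Kupffer cells. Of 5 Kupffer cell genes, between 0 and 3 were above that percentile on any array, and the mean of the 5 was 3.93, 3.77, 4.61 and 4.50 in KO against 3.79, 3.62, 4.52 and 4.53 in WT. Clec4f, their defining lectin, read 3.95, 3.65, 4.19 and 3.95 in KO and 3.90, 3.63, 4.17 and 3.96 in WT. It was above that percentile on 2 arrays of set 1, KO replicate 1 and WT replicate 1, and on 0 of set 2. Of the others on that list, the macrophage survival factor Cd5l differed by 0.07 (SE 0.10), with 0.21 in set 1 and -0.08 in set 2. Cd5l was above the olfactory 95th percentile on 4 arrays of set 1, where both KO arrays lay above both WT arrays, and on 2 of set 2. The complement component C6 differed by 0.19 (SE 0.18), with 0.42 in set 1 and -0.04 in set 2. Timd4, a receptor for dying cells, differed by -0.10 (SE 0.12), with -0.04 in set 1 and -0.17 in set 2. Vsig4, a complement receptor of Kupffer and other resident macrophages, differed by 0.27 (SE 0.10), with 0.10 in set 1 and 0.44 in set 2, at levels below the olfactory 95th percentile. With the arrays of set 1 left out in turn, 13 and 17 of 25 myeloid genes were above 0 without KO replicates 1 and 2, and 19 and 15 without WT replicates 1 and 2.

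The mean of 22 skeletal muscle genes was 6.16, 8.60, 5.78 and 9.94 in KO, against 7.73, 7.25, 10.36 and 8.82 in WT. All 22 were below 0 in the set-block fit, with a median of -0.72 (-0.05 in set 1 and -1.25 in set 2). Of 12 fibroblast and preadipocyte genes 10 were below 0 (median -0.14), with 7 of 12 above 0 in set 1 (median 0.049) and 1 of 12 in set 2 (median -0.35), the set in which both KO arrays lay below both WT arrays for Folr2 and Lyve1. Of 9 endothelial genes 6 were above 0 (median 0.031), of 16 adipocyte genes 12 were below 0 (median -0.12), and both of the red blood cell genes measured were below 0. The part of these tissues in the macrophage and lymphocyte values was not tested.

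**Figure D5:**
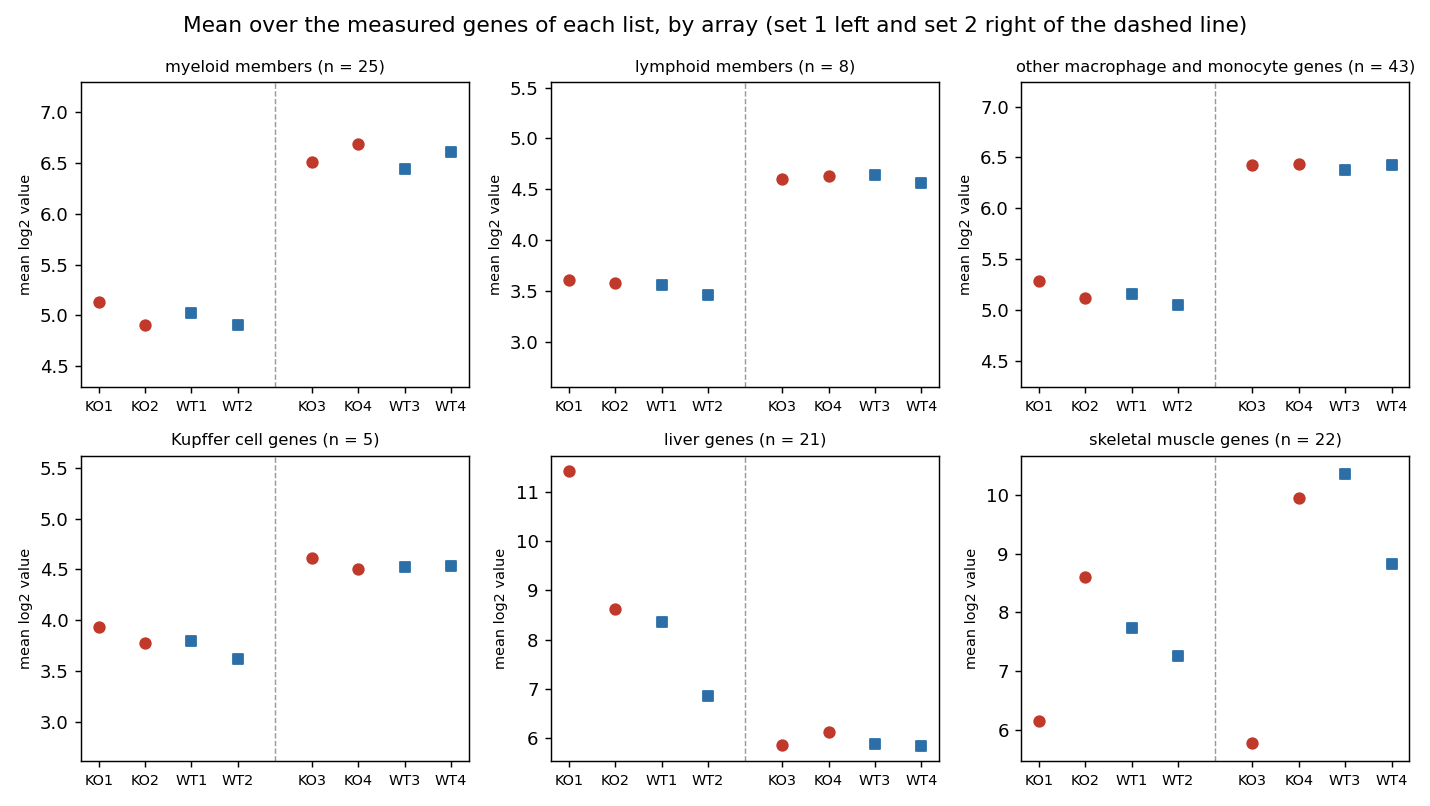
Mean log2 value (vertical axis) over the measured genes of 6 lists on each array, KO as red circles and WT as blue squares, with set 1 left and set 2 right of the dashed line. Within set 1 the liver mean spans 6.87 to 11.42, the muscle mean 6.16 to 8.60 and the myeloid mean 4.90 to 5.13. Within set 2 they span 5.84 to 6.13, 5.78 to 10.36 and 6.45 to 6.69.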

How the data were processed

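Arrays of 8 mice were used, 4 per genotype, grouped by their titles. The deposited log2 values were made by the authors, per the labels, by RMA on core exons with Affymetrix Expression Console. Their versions and genome build: not given in the sources used here. Base 2 is the scale on which RMA writes values, and the highest value was 19.93. Signal above background was judged from the 95th percentile of olfactory receptor genes, and the number of arrays limits the precision.

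Of 65956 probe sets that are not controls, 31080 named 1 gene (612 of them under several of its names), 1670 named several and 33206 were unnamed here. Old symbols were replaced by way of the gene identifiers listed by RefSeq (assembly GRCm38.p6), where 23430 of the 31080 matched. Where several probe sets named a gene (357 genes), that of highest mean stood for it, which left 30627 genes.

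KO was compared with WT in limma 3.58.1 (R 4.3.3) with lmFit and eBayes, the set as a block, no filter, and Benjamini-Hochberg adjustment over all 30627 genes. A fit of 4 set-by-genotype means gave the differences within and between the sets. The fits were tested on simulated data with planted differences larger than that of any member. Differences as small as those of the members were not simulated. The labels call the arrays separate animals. The set was read from the values, and the members, lists and set block were chosen with earlier results of these data known. All members are named, and of each other list the 3 genes with the smallest p among those whose mean over all arrays was above the low-signal level (given here for immune lists, where the Kupffer list had 2), with Hilpda, Alb, Csf1, Ccl2 and Spi1. Spi1 shares its probe set with a second gene identifier and was not used. Vsig4, Clec4f, Timd4, Ucp1, Cidea, Xist and Uty were named after their values were seen.

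Arrays of the same number deviated together from their group means (r = 0.701, 0.473, 0.478 and 0.610). Around the means of each set and group, r was 0.107 in set 1 and -0.0889 in set 2. Over all named genes, the shared part is thus mostly that of the set. No r was computed for the members alone. Alternatives were 2 other normalizations, no block, the replicate number as a block, each set alone, a filter on low values, 2 other variance settings, the mean of all probe sets, and each array left out. Counts of members above 0, and the restriction to members above low signal, were added after the data were examined.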

Additional observations from a re-analysis of the deposited data

How the results depend on the processing

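No member passed under any of the 18 alternatives (lowest adjusted p = 0.174, Folr2 in set 2). The count of all genes called stayed 0 except in set 2 alone, where it was 1 (Dbp), and with 1 array left out, where it ranged from 0 to 1 (Cebpa without KO replicate 3). At an unadjusted threshold of 0.05 the set block gave 1474 genes, no block 38 and the replicate block 1227. With the replicate block 0 genes were called, and the differences of all members were those of the set block. For Mrc1, Cd14 and C1qa the unadjusted limma p was 0.0262, 0.0312 and 0.0434 with the replicate block. With the set block it was 0.181, 0.0638 and 0.0288. No block, the replicate block, the mean of all probe sets and the other variance settings cannot change a member's difference, so they do not bear on the medians. The median of the myeloid genes stayed above 0 after quantile normalization (0.048), median centring (0.023) and the filter on low values (0.060, 20 genes), and in each set alone. With 1 array left out it ranged from 0.016 to 0.095, with 13 to 19 of 25 genes above 0. Over the 17 myeloid genes above low signal on all arrays the median was 0.089, with 0.0011 in set 1 alone and 0.16 in set 2 alone. Of the lymphoid genes, 0 met that criterion or the filter on low values. The lymphoid median was 0.10 in set 1 alone and 0.0035 in set 2 alone, and with 1 array left out it ranged from 0.0036 to 0.081, with 5 to 8 of 8 genes above 0. After quantile normalization 4 of 8 lymphoid genes were above 0, and after median centring 5. The difference of the medians, 0.017, ranged from -0.046 to 0.060 with 1 array left out, and was -0.053 in set 1 and 0.079 in set 2. Of the 34 members, 9 in set 1 alone and 8 in set 2 alone had the opposite sign to the set-block difference, 3 after quantile normalization, 2 after median centring, and 2 to 6 with 1 array left out. The causes were not tested. Low signal limits the lymphoid genes.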
